A study of Pseudotsuga menziesii with 83 samples.

Results

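The 50 most abundant transcripts of mature Douglas-fir needles held a larger share of the RNA-seq counts in June than in March, and 6 of them gained more than the whole net difference. These transcripts were selected on their counts, as the 50 features with the largest sum over 44 libraries, out of 90662 features in the deposited table and 86202 with any count in those libraries. The choice used the level over all libraries and not the difference between dates or trees. A feature that is very high on a single date can still have entered the list through that date, so its direction is partly set by the choice. Together the 50 members held 25.5% of all counts.

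The libraries came from 11 trees of *Pseudotsuga menziesii* in a single common garden in southern Oregon, where they were planted as 2-year-old trees. The trees were sampled on 10 March, 7 April, 6 May and 17 June of the same year, so each tree gave 4 libraries. Trees 44, 46, 89 and 90 were of the Oregon Siskiyou seed source (ORSI, called Oregon here, 16 libraries), trees 05, 08 and 39 of the Washington Cascades source (WACA, Cascades, 12 libraries), and trees 10, 12, 68 and 69 of the Washington Coast source (WACS, Coast, 16 libraries). Each library was made from the previous season's needles of a single tree, with no treatment and no engineered genotype. Trees 44 and 90, 46 and 89, 05 and 39, 10 and 69, and 12 and 68 each share a family, tree 08 is the only tree of its family used here, and a seed source is therefore known here from 3 or 4 trees of 2 families. All 11 trees were labelled before budbreak on 10 March, 3 of 11 were past it on 7 April, 10 of 11 on 6 May and 11 of 11 on 17 June. The columns of tree 38, sampled on fewer dates, were left out.

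Evergreen needles are the photosynthetic organ of a conifer and stay on the branch for several years. They leave winter cold hardiness in spring, regain full photosynthesis, and support the flush of new shoots after budbreak. In green tissue a small number of transcripts, often those of the photosynthetic apparatus and of carbon fixation, usually takes a large part of the mRNA. The features of this table carry numbers in place of gene names and were given with no sequence or annotation here, so no role can be attached to any member and none could be matched to markers of needle tissue. A needle can also carry RNA of organisms that live on it, and the organism of a member is not known either.

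Total counts per library in the deposited table lay between 11293394 and 11302021, a range of 0.0764% of their mean, and no pair of the 44 columns was identical. The read numbers that the paper lists for these libraries differ far more, so the deposited totals do not show sequencing depth. The share of a member is its count as a percentage of the library total. Shares add up to 100%, so a gain in one feature lowers the others. At these totals counting error is small if the deposited counts are taken as raw. The least abundant member, gene26320, had 5937 counts in its lowest library, a share of 0.0525% (95% Wilson interval 0.0512% to 0.0539%, which covers counting error only). Apart from gene16530 and gene39934, every member had at least 1197 counts in every library. March and April libraries were split over the flowcells fc1022 and fc1025, with 6 and 5 of the 11 on fc1022, all May and June libraries were on fc1025, and each lane held a single date, so lane and date cannot be told apart. These are bulk needle samples, in which fewer cells of a type and less RNA per cell cannot be told apart.

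The mean summed share of the 50 members was larger at each later date in all 3 seed sources. It averaged 20.2% ± 0.499, 24.5% ± 2.29, 28.6% ± 3.15 and 33.9% ± 3.77 in Oregon trees on 10 March, 7 April, 6 May and 17 June (SD, n = 4). Cascades trees had 18.0% ± 2.12, 18.6% ± 2.26, 29.0% ± 3.29 and 30.8% ± 6.80 on the same dates (SD, n = 3). Coast trees had 17.8% ± 4.20, 18.5% ± 2.17, 28.7% ± 6.39 and 36.6% ± 2.30 (SD, n = 4). The June libraries of the 11 trees ran from 24.6% to 38.9% with a median of 36.3%, and the March libraries from 14.3% to 23.8% with a median of 19.7%, so the groups did not overlap. Within trees, June exceeded March in 11 of 11, by 8.91 points in tree 39 to 24.6 points in tree 10. The mean of the 3 source differences was 15.1 percentage points (SD over trees 4.77, n = 11), made of 1.86 points from March to April, 8.20 from April to May and 5.03 from May to June. No p-value is attached to this sum, since the members were chosen on their counts.

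**Figure D1:**
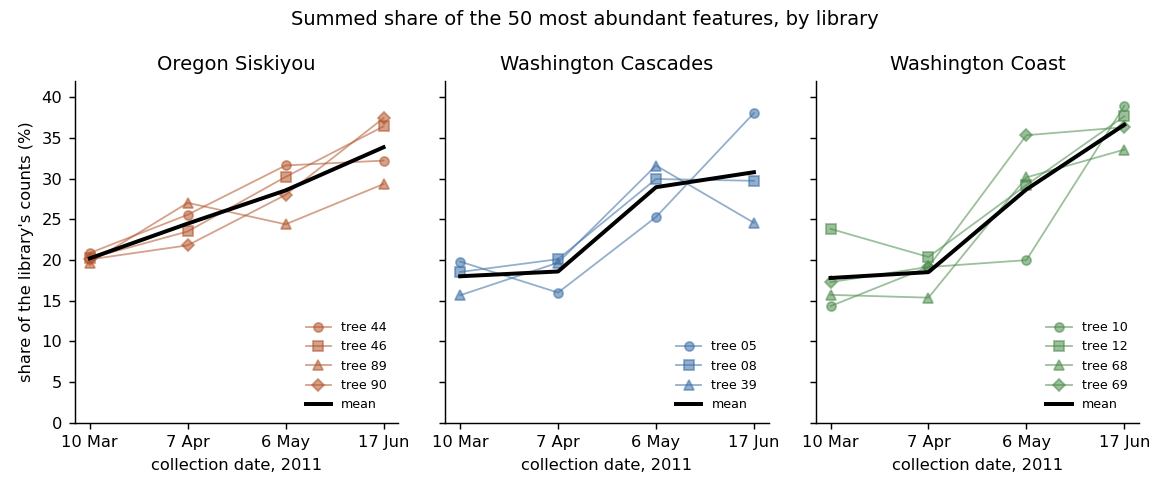
Summed share of the 50 members in each library, in % of the library's counts, by collection date, with a panel for each seed source, thin lines for trees and a thick line for the mean. All 11 trees ended higher in June than in March, and from March to April the Oregon mean gained 4.28 points, the Cascades mean 0.588 and the Coast mean 0.721.

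The timing differed between trees. The sum was larger in April than in March in 8 of 11 trees, larger in May than in April in 10 and larger in June than in May in 9. In Oregon tree 89 it was 24.4% in May against 27.0% in April, and in Cascades tree 39 it was 24.6% in June against 31.6% in May. Coast tree 10 had the highest sum of all 44 libraries in June, 38.9%, after the lowest of May. On 7 April the 3 trees past budbreak, the Oregon trees 44, 46 and 89, had sums of 25.6%, 23.5% and 27.0%, against 15.4% to 21.8% in the 8 trees before it, where the highest value belonged to Oregon tree 90. On 6 May the only tree still before budbreak, Coast tree 10, had the lowest sum of the 11, below the 24.4% to 35.3% of the other 10. In April bud state and seed source cannot be told apart, apart from tree 90, and the part of bud state in these values was not tested.

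Lists of other lengths and from other libraries gained share too. They overlap with the members and hold many of the same features, so these gains are not separate support. The 20 most abundant features alone gained 15.2 points and the 100 most abundant 13.5 points. A list of 50 chosen on the March libraries alone, which shares 38 features with the members, gained 12.1 points toward June. Lists chosen for each source on the other 2 sources, which share 46 to 48 features with the members, gained 14.7 points on average. Within flowcell fc1025 alone, which holds 5 of the 11 March libraries, the gain of the members was 16.4 points. Its Cascades part sets 3 June libraries against the March library of tree 39 alone (15.7%), the lowest Cascades March value. Tree 39 itself gained 8.91 points. In counts scaled by TMM (CPM), as a percentage, the gain of the members was 21.3 points. The counts of a library were also held by fewer features in June: the 50 largest features of each library's own ranking held 34.8% ± 4.57 in June and 20.1% ± 2.57 in March, and 344 ± 124 features against 725 ± 124 were enough to hold 50% of the counts (SD, n = 11). That number was lower in June in 11 of 11 trees. All lower ranks held smaller shares in June. Together they had to lose what the members gained, since shares have a fixed sum, so only the split between bands is a further result. The June minus March difference was -1.59 points for the features ranked 51 to 100, -3.81 for those after them down to rank 500, -6.29 for the next band and -3.40 for the least abundant features, and each of these 4 bands was lower in June in 11 of 11 trees.

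Counts were steeply graded within the list. The 3 most abundant members, gene44217, gene1479 and gene1117, held 10.4% of all counts, the first 7 held 62.7% of the counts of all 50, and the sum of the first was 40.2 times that of the 50th. gene44217 led 30 of the 44 libraries, gene1117 led 11, gene38478 led 2 and gene1479 led 1. The border of the list is not a gap: the members ranked 46 to 50 (gene4851, gene12035, gene23651, gene19465 and gene26320) had sums of 636583, 635857, 622386, 613686 and 612003, and the features ranked 51 to 55 (gene20771, gene5085, gene6007, gene11030 and gene709) had 608737, 608373, 604824, 601539 and 601000. Ranked by the libraries of a single date, 38 members were among the first 50 of March, 39 of April, 43 of May and 44 of June, and 29 were among them on every date. Ranked by seed source, 46 were among the first 50 in Oregon, 44 in the Cascades and 45 on the Coast.

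The net rise was the balance of large gains in a few members and small losses in many. From March to June 19 members gained 18.3 points together and 31 lost 3.22 points. gene1479 gained 4.42 points, gene38478 gained 4.22 and gene44217 gained 3.03, and these 3 came to 11.7 points, or 77.4% of the net rise. With gene40163 (1.76 points), gene45618 (1.49) and gene61204 (0.919) the gain was 15.8 points, more than the whole net rise, and the other 44 members lost 0.756 points between them. The 3 leading gains made up 77.5% of the net rise in Oregon trees, 86.5% in Cascades trees and 71.1% in Coast trees. The members other than these 3 gained 3.41 points together, and their sum was higher in June in 11 of 11 trees. On the losing side gene14970 and gene33484 together made up 40.8% of the losses.

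**Figure D2:**
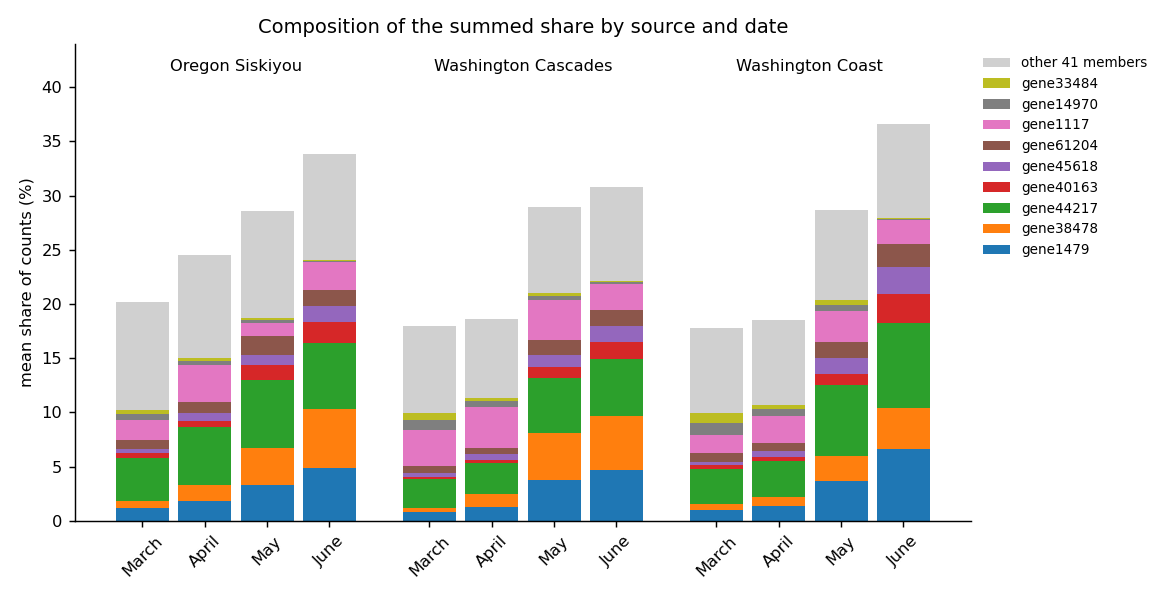
Mean share of counts, in %, held by single members and by the other members together, stacked for each seed source and date. The 6 members at the base of each bar are those with the largest gains, which together averaged 22.3% in June and 6.35% in March over the 11 trees.

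Among the 6 leading gains, gene1479 and gene38478 had the largest changes in points. gene1479 ran from 3.37% to 7.78% of the counts in the 11 June libraries (median 5.38%), against 0.711% to 1.48% in the March libraries (median 0.900%). Its June and March libraries did not overlap, and its log2 difference in TMM-scaled counts was 2.79 (SE 0.232, edgeR quasi-likelihood test, adjusted p = 1.57e-11, higher in 11 of 11 trees). gene38478 ran from 2.85% to 8.03% in June (median 4.22%), against 0.321% to 0.877% in March (median 0.496%), again with no overlap and with a log2 difference of 3.51 (SE 0.323, adjusted p = 1.19e-10). gene38478 had the largest log2 difference of the 10 most abundant features and was the leading feature in Cascades tree 39 in May and tree 05 in June.

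gene44217 was already the largest feature in March, and its log2 difference was the smallest of the 11 members that rose. It ran from 4.14% to 8.73% in June (median 6.26%) and from 2.49% to 5.31% in March (median 3.09%), so the ranges overlapped although it was higher in June within each of the 11 trees (log2 difference 1.24, SE 0.220, adjusted p = 2.42e-05). Its call in the steps between dates fell between April and May, where the log2 difference was 1.01 (SE 0.219, adjusted p = 0.000389), while the values for April against March (0.13) and June against May (0.10) did not pass the test. gene61204, the fifth largest feature, followed a similar course. It ran from 0.727% to 2.74% in June and from 0.427% to 1.14% in March, and its log2 difference was 1.42 (SE 0.255, adjusted p = 2.81e-05), with 1.34 between April and May. Within the libraries of flowcell fc1025 the adjusted p of gene61204 was 0.0111, which misses the threshold of 0.01.

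gene40163 and gene45618 rose too, at lower levels. gene40163 ran from 0.787% to 3.73% in June (median 1.99%) and from 0.134% to 0.886% in March (median 0.250%), with a log2 difference of 2.98 (SE 0.397, adjusted p = 2.13e-07). Its highest March value belonged to Oregon tree 46, and it was the only one above the lowest June value, of Oregon tree 44. gene45618 ran from 0.586% to 3.59% in June (median 1.65%) and from 0.0862% to 0.509% in March (median 0.344%), with no overlap (log2 difference 2.77, SE 0.366, adjusted p = 1.84e-07). Trees differed widely in this member: tree means over the 4 dates ran from 0.329% in Oregon tree 46 to 1.73% in Coast tree 68.

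The next rising members gained less than 1 point each. gene21311 ran from 0.329% to 1.54% in June and from 0.0472% to 0.307% in March (log2 difference 3.14, SE 0.361, adjusted p = 1.22e-08), and gene11014 from 0.190% to 0.851% in June and from 0.0309% to 0.154% in March (log2 difference 3.17, SE 0.370, adjusted p = 1.64e-08). Neither overlapped between the 2 dates. gene45574, which was ranked 286 in March and 15 in June, had a log2 difference of 3.22 (SE 0.363, adjusted p = 8.2e-09). gene38740 reached its level earlier. It ran from 0.361% to 0.723% in June and from 0.0926% to 0.421% in March (log2 difference 1.85, SE 0.240, adjusted p = 1.3e-07), and its mean share of 0.638% in May was above the 0.551% of June. With gene16530, a member of 3 Oregon trees, these are the 11 members that rose.

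gene14970 and gene33484 fell most. gene14970 was the fourth largest feature in March and ranked 44 in June. It ran from 0.0544% to 0.231% in June (median 0.118%) and from 0.358% to 1.50% in March (median 0.780%), with no overlap and a log2 difference of -2.51 (SE 0.276, adjusted p = 5.16e-09). gene33484 was ranked 100 in June and 7 in March, at 0.0318% to 0.126% in June (median 0.0632%) and 0.207% to 1.38% in March (median 0.596%), with a log2 difference of -2.69 (SE 0.295, adjusted p = 5.08e-09). Both were lower in June in 11 of 11 trees. In the steps between dates both fell from May to June, gene14970 by 1.69 and gene33484 by 1.82 on the log2 scale. Their values for April against March, -0.88 (adjusted p = 0.0308) and -1.01 (adjusted p = 0.0185), did not pass the test without pairing. With the tree as a replicate block both passed (adjusted p = 0.00323 for gene14970 and 0.000729 for gene33484), and gene33484 also passed with DESeq2 (0.00452). Their values for May against April, 0.05 and 0.15, did not pass. The count of gene33484 was between 0.419 and 0.921 of that of gene14970 in the 44 libraries, with a median of 0.607.

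gene14713, gene20543 and gene10319 fell less. gene14713 ran from 0.0754% to 0.184% in June and from 0.216% to 0.412% in March (log2 difference -1.04, SE 0.212, adjusted p = 0.000148). gene20543 ran from 0.0567% to 0.166% in June and from 0.172% to 0.604% in March (log2 difference -1.08, SE 0.284, adjusted p = 0.00238), and lost its call without Cascades tree 05 (adjusted p = 0.0135), without Cascades tree 39 (0.0116) and with the flowcell as a covariate (0.0115). gene14713 and gene20543 fell between April and May, by 1.36 and 1.41 on the log2 scale, and had June values of 0.67 and 0.58 above May that did not pass the test. gene10319 had a log2 difference of -0.81 (SE 0.152, adjusted p = 4.99e-05). gene27590, the eighth largest feature, was among the 5 largest losses in points (-0.147), yet its log2 difference of -0.02 did not pass the test (adjusted p = 0.93), and it took 0.391% to 0.882% in June and 0.497% to 1.02% in March.

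Counts of called members are given beside those of all features as a description, since the choice on summed counts favours features that are high on some dates. In the fit of all 44 libraries, where all 50 members were among the 29189 features tested, 11 of 50 members (22%) were higher in June, against 15.2% of all features, and 5 of 50 (10%) were lower, against 15.6% (edgeR quasi-likelihood test, adjusted p of at most 0.01). Of the 11, 4 were outside the 50 most abundant features of March: gene21311 (rank 64), gene11014 (rank 174), gene45574 (rank 286) and gene16530 (rank 2202). They entered the list through later dates, so their direction is partly set by the choice and nothing is read from the difference to the background. The median log2 difference of the members was 0.14, and that of all features 0.00, with 31 members above 0. With library totals the members' median was -0.18, with 20 above 0, and in Oregon trees alone it was -0.14 on the TMM scale. No sign of these 16 called members depended on the scaling. The number of falling members did: with shares of the library total in place of TMM scaling, 11 members were higher and 12 lower. The same change turned the split over all features to 1944 higher and 7638 lower, against 4438 and 4564 with TMM, and moved the median of all features to -0.29 on the log2 scale. The June and March libraries did not overlap, in shares, for 5 members that were above, against 0.781% of all features, and for 5 that were below, against 4.68%. gene21311 and gene11014 are among the 5 above, so this count too is partly set by the choice. Any change over the 4 dates was called for 29 members (58%), against 47% of all features.

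**Figure D3:**
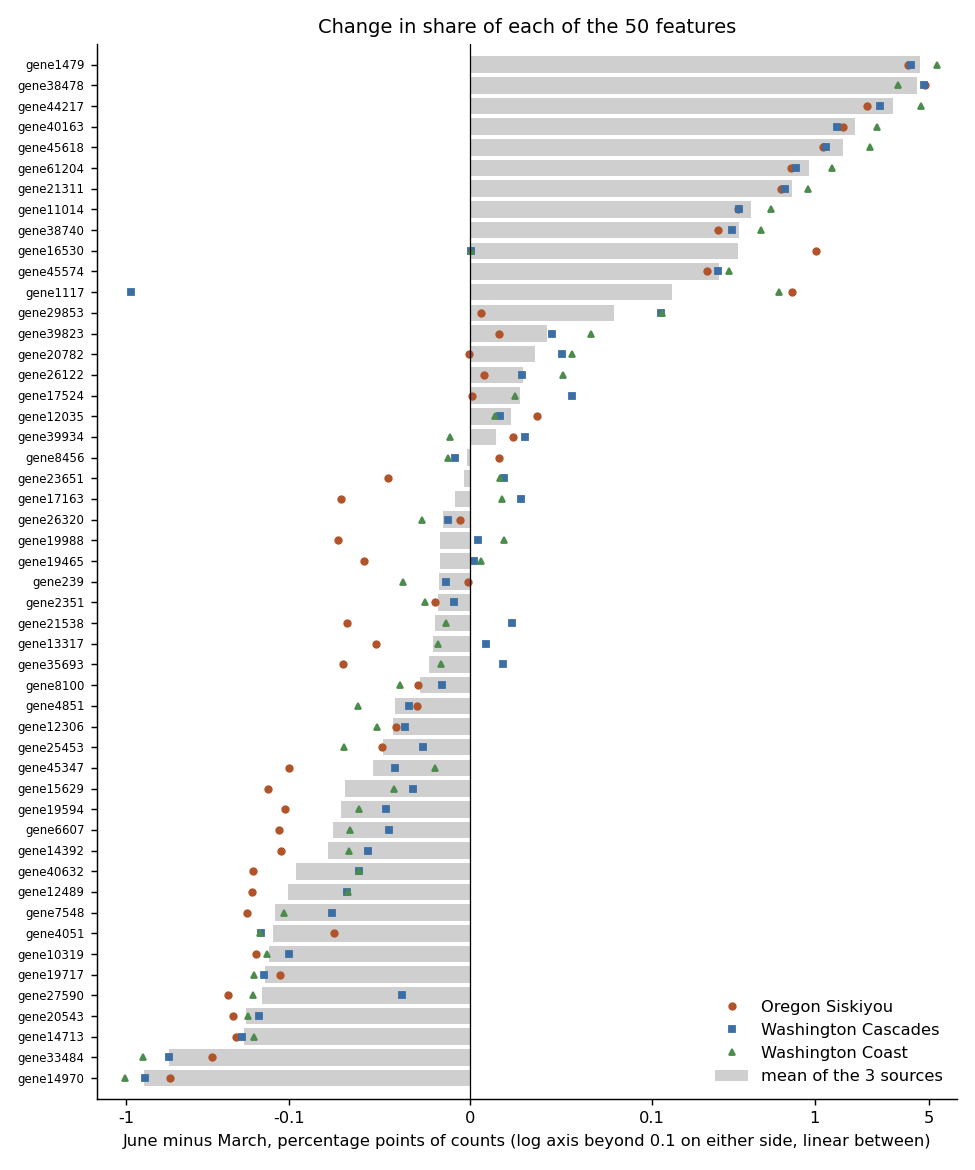
June minus March share of each member, in percentage points of the library's counts, on an axis that is linear between -0.1 and 0.1 and logarithmic beyond. Grey bars are the mean of the 3 seed sources and symbols the sources, and the 19 members at the top gained 18.3 points while the 31 below lost 3.22.

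In the fit without a tree block, the step from April to May carried most of the calls. In that step 15 members were higher (30%), against 12.9% of all features, and 4 were lower (8%), against 14%. The choice on summed counts favours features that are high on later dates, and most other features tested have far lower counts. Nothing is therefore read from these differences to the background. Besides 10 of the 11 members that rose from March to June, the members higher in May included gene29853 (log2 difference 1.22), gene17524 (1.09), gene20782 (0.99), gene26320 (0.85) and gene26122 (0.70), and the members lower in May were gene14713, gene20543, gene4051 (-1.03) and gene40632 (-0.64). From March to April a single member was called, gene38740, which was 0.93 higher on the log2 scale (SE 0.234, adjusted p = 0.00977), against 1.91% of all features higher and 1.61% lower. With the tree as a replicate block 11 members were called in that step, among them gene38478, gene14970 and gene33484. The call of gene38740 was lost without tree 44, 46, 89, 05, 08, 39, 12, 68 or 69, and 2 members were called without tree 89 or tree 90. From May to June 1 member was called higher, gene239 (0.54), against 3.75% of all features, and gene14970, gene33484, gene19717 (-1.03) and gene25453 (-0.85) fell, against 3.27%. The call of gene239 does not hold up: 0 members were higher when any tree other than tree 89 was left out, and 0 on family sums, with filterByExpr, in fc1025 alone, with library totals and with no count filter. The blocked fit called 14 members in this step, the count was 10 without tree 89, and it was 3 without tree 08 or tree 39.

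Some members were highest in the middle of the series. The highest mean share fell on the March date for 21 members, on the April date for 6, on the May date for 9 and on the June date for 14. Medians of gene20782 were 0.153% (March), 0.141% (April), 0.215% (May) and 0.120% (June). gene2351 had medians of 0.114%, 0.126%, 0.142% and 0.0958% on these dates. gene20782 rose from April to May (log2 difference 0.99, SE 0.251, adjusted p = 0.00197), and its June against May value of -0.55 did not pass the test (adjusted p = 0.134). Its June against March value of 0.75 had an adjusted p of 0.0143, and of 0.000162 with the tree as a replicate block. For gene2351 the June against May value of -0.70 had an adjusted p of 0.0115, and over the 4 dates together both changed.

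**Figure D4:**
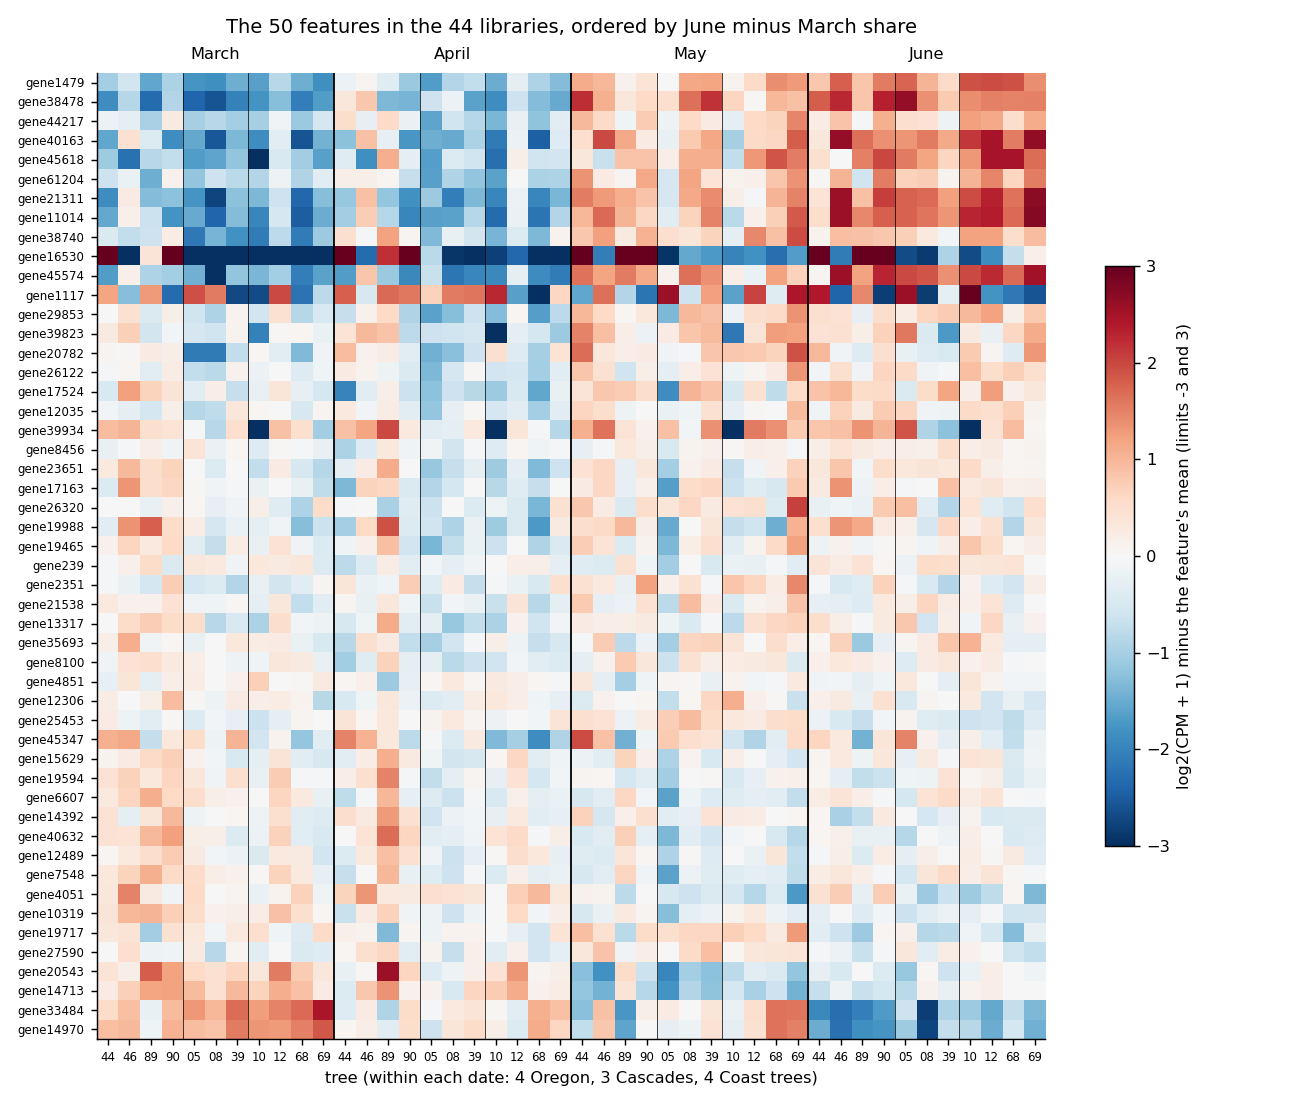
Log2(CPM + 1) of the 50 members in the 44 libraries, each relative to the member's own mean, with members ordered by June minus March share from the top and libraries by date, seed source and tree. Red is above the member's mean and blue below it. Most of the upper rows turn from blue in March and April to red in May and June, gene16530 and gene39934 show the contrasts between single trees, and the bottom 2 rows turn from red to blue.

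The share of variation that went with date and with tree differed from member to member. For log2 TMM-scaled counts, date accounted for a median of 33.5% of a member's variation over the 44 libraries, tree for 35.8% and the remainder for 26.8%. These parts are not adjusted for there being 4 dates and 11 trees, which favours tree over date. The tree part also contains seed source and family. Date was the largest part in 19 members, among them gene1479 (84.0%), gene38478 (81.1%), gene45574 (77.3%) and gene21311 (77.0%). Tree was the largest part in 22 members, led by gene39934 (90.4%), gene16530 (85.3%) and gene19988 (69.9%). gene1117 had 65.9% of its variation outside both date and tree, the highest of the 50.

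Several members changed in each of the 3 seed sources. In Coast trees 10 members were higher in June (20%), against 4.86% of all features, and 2 were lower (4%), against 5.04%. In Cascades trees 8 were higher (16%), against 2.31%, and 2 lower (4%), against 2.55%. In Oregon trees 6 were higher (12%), against 4.08%, and 4 lower (8%), against 4.35%. gene1479, gene38478, gene45618, gene21311, gene11014 and gene45574 rose and gene14970 and gene33484 fell in each of the 3. Of these, gene21311, gene11014 and gene45574 were outside the 50 most abundant features of March, so their direction is partly set by the choice. For that reason nothing is read from the differences to the shares over all features. gene44217 had log2 differences of 0.82 (SE 0.358, adjusted p = 0.112) in Oregon trees, 1.24 (SE 0.417, adjusted p = 0.0464) in Cascades trees and 1.65 (SE 0.365, adjusted p = 0.0014) in Coast trees. The differences between sources were tested themselves, and edgeR called 0 of 50 members and 0% of all features (unadjusted p-values of 0.05 or less in gene38740 and in 488 features, DESeq2 0 members). The Cascades count rests on few trees: it was 2 without tree 05 or 08 and 3 without tree 39. Flowcell fc1025 holds only 1 Cascades library of March (tree 39), so its count of 0 says nothing about stability. The Oregon count of 10 was 4 without tree 89 or tree 90.

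Between seed sources no member passed the edgeR test. On simulated counts for Oregon against Washington this test recovered 0 of 200 features changed 2-fold and 93 of 200 changed 4-fold. A missing call therefore does not show equal levels. Averaged over the 4 dates, the summed share was 26.8% ± 1.17 in Oregon trees (n = 4), 24.1% ± 1.04 in Cascades trees (n = 3) and 25.4% ± 2.34 in Coast trees (SD, n = 4). On counts added up per tree, edgeR called 0 members between Oregon and Washington trees and 0% of the 41096 features tested (with unadjusted p-values of 0.05 or less in 6 members and 4603 features), while DESeq2 called 2 members, gene16530 and gene23651. Between Cascades and Coast trees it called 0 members and 0.00243% of features in either direction (unadjusted p-values of 0.05 or less in 2 members, DESeq2 0 members). The median log2 difference of the members between Oregon and Washington trees was 0.27, and that of all features -0.01. In 1 of 50 members (gene23651) the 4 Oregon trees were all above every Washington tree, against 0.448% of all features. In 1 of 50 (gene4851) they were all below, against 1.78%. In 2 of 50 members (gene38478 and gene45347) all 3 Cascades trees were above every Coast tree, against 4.37% of all features. In 0 members they were all below, against 2.14%. Counts this small cannot be told from the shares over all features, so nothing about seed source is read from this lack of overlap.

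gene16530 was at high counts in 3 Oregon trees. Over the dates from March to June it had 1519, 51697, 157505 and 104003 counts in tree 44, 7859, 10169, 148599 and 239101 in tree 90 of the same family, and 228, 677, 8708 and 123725 in tree 89. In Oregon tree 46, of the same family as tree 89, it had 3, 23, 25 and 24 counts, and in the 28 Washington libraries 0 to 156. Its place in the list thus rests on 3 Oregon trees, where its tree means were 0.696%, 0.898% and 0.295%, and it was ranked 10 in Oregon libraries but 20396 in Cascades and 19955 in Coast libraries. The count was highest in May in tree 44 and in June in trees 89 and 90, and tree 89 spanned a 543-fold range between dates. The log2 difference between Oregon and Washington trees was 10.98 (SE 1.52) with an adjusted p of 0.12, which was 7.49e-05 without tree 46. Tree 46 is the only Oregon tree with few counts, and leaving it out makes the split complete. Nothing is therefore read from the smaller value about gene16530. Its log2 difference of 5.14 between June and March over the 3 sources (SE 1.29, adjusted p = 0.00153) averages these trees with Washington libraries of very few counts, and the call was lost without Cascades tree 39 (adjusted p = 0.0188), in flowcell fc1025 alone (0.0604) and with the flowcell as a covariate (0.0227).

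gene39934 was far lower in 1 tree than in the other 10. Coast tree 10 had 568, 512, 494 and 362 counts on the 4 dates, against 7366 to 60775 in the other 40 libraries. Its tree mean was 0.00428% in tree 10 and 0.347% in tree 89, the highest, a ratio of 80.9. Tree 69, of the same family as tree 10, had 9578, 10970, 21312 and 15915 counts. Between June and March the log2 difference was 0.39 (SE 0.569, adjusted p = 0.615), and it was -0.19 without Cascades tree 05.

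gene1117, the third largest feature, switched between high and low libraries within the same tree. Coast tree 10 had 26328, 811821, 50596 and 919266 counts on the 4 dates. Oregon tree 44 had 363980, 504585, 39417 and 720487, and Coast tree 12 had 572930, 51437, 559380 and 34742. The highest of the 4 dates was 2.88 times the lowest in Cascades tree 05, which was high throughout, and 34.9 times in tree 10, with a median over trees of 18.3 times. Among the other members with no June against March call, the median reached 2.96 times in gene4051, and it was 1.47 times in gene27590. By date gene1117 ran from 0.217% to 5.38% in March (median 0.855%), from 0.209% to 7.19% in April (median 3.74%), from 0.271% to 7.70% in May (median 0.879%) and from 0.148% to 8.14% in June (median 0.308%). June exceeded March in 5 of 11 trees, and its log2 difference of 0.52 had an SE of 0.801 (adjusted p = 0.634). This value was -0.14 with the tree as a replicate block, -0.04 without Cascades tree 05 and -0.72 without Coast tree 10.

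**Figure D5:**
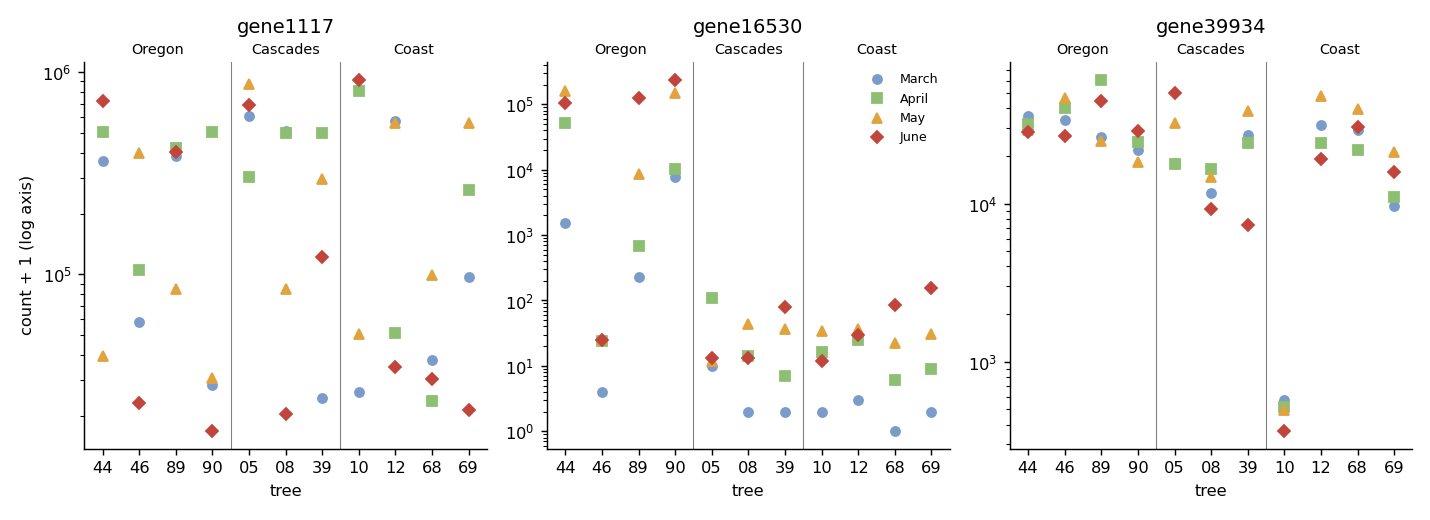
Counts plus 1, on a log axis, of gene1117, gene16530 and gene39934 in each of the 11 trees, with a symbol for each date and grey lines between seed sources. gene1117 spreads over a median range of 18.3 times within trees, gene16530 stays at 156 counts or fewer in all libraries outside trees 44, 89 and 90, and gene39934 is at 568 counts or fewer in the 4 libraries of tree 10.

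A few features kept a narrow ratio to gene1117, and they were picked after their values had been seen. Among the 1000 most abundant features, the ratio of gene72098 (rank 125) to gene1117 varied least, between 0.0233 and 0.0374 over the 44 libraries, with an SD of 0.154 on the log2 scale. gene90160 (rank 340) and gene90335 (rank 486) came next, with SDs of 0.20 and 0.31. Over the same libraries gene1117 itself ran from 16752 to 919266 counts.

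The pair of members with the steadiest ratio, also picked after its values had been seen, was gene7548 and gene6607, ranked 15 and 24. The count of gene6607 was between 0.619 and 0.668 of that of gene7548 in all 44 libraries, with a median of 0.644. The SD of this log2 ratio was 0.0223, where counting alone would give 0.0133 if the deposited counts are taken as raw. The next steadiest of the 1225 pairs had an SD of 0.204, and the median over all pairs was 1.00. gene7548 itself ranged from 0.158% to 0.436% in June and from 0.276% to 0.662% in March. Without sequences, whether this pair shares reads or belongs to 1 transcript could not be checked here, and the same limit holds for any members with near-identical copies.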

How the data were processed

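RNA was measured by strand-specific RNA-seq in 44 libraries of needles. The authors deposited read counts per numbered feature for all libraries in a single table. Bowtie2 and CASAVA 1.8 are the tools listed by the submitters for processing, and no source used here names the reference behind the feature numbers. The deposited totals are nearly equal between libraries, and the step that made them so is not described there. Per-library intervals cover counting error only.

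The columns of tree 38 were left out, 3 in number, and 1 of these was not matched to a sample. That column is labelled June, as is the sample record, whereas the paper lists a March library and no June library for this tree. Members and gene lists were chosen with earlier results of these data known. Named members are the 10 most abundant, the 8 with the largest gain and the 5 with the largest loss in points (June minus March, mean of the source differences), the 3 with the highest ratio of the highest to the lowest tree mean, and the 2 highest in April or May relative to March and June. The 4 members with the largest called difference between sources were to be named too, and none was called. Other members are named where a count turns on them, chosen after their values were seen. Features with a median count over 5 were fitted with edgeR 4.0.16 in R 4.3.3 (TMM scaling, quasi-likelihood test, 12 means of source and date, Benjamini-Hochberg adjusted p of at most 0.01). SE is the standard error of the log2 difference. Seed sources were compared on counts added up per tree. Replicates are separate trees. Each tree gave a library on every date, so same-numbered libraries are paired by tree: their deviations from the group means had a mean correlation of 0.529, and 66 of 66 pairs were over 0.1. On simulated counts for June against March, with 28883 features fitted, 95 of 200 features changed 2-fold were recovered with 2 false calls. For Oregon against Washington 0 of 200 were recovered (40056 features). With 4-fold changes 170 of 200 were recovered with 4 false calls for June against March. For Oregon against Washington 93 of 200 were recovered with 0 false calls. The simulated libraries were drawn independently, without the pairing by tree.

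Alternatives were DESeq2 1.42.0, other scalings, filters and thresholds, counts added up per family, the flowcell as a covariate or fc1025 alone, the tree as a replicate block, other lists, and leaving out each tree.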

Additional observations from a re-analysis of the deposited data

Results flagged for a closer look

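Among 160 groups of 4 libraries, 11 held a library whose share of a member lay far from the other 3, and chance alone flags about 1 in 20 such groups. gene1117 had 3 of them, with 3.51% in Oregon tree 46 in May against 0.271% to 0.751% in the other 3 trees, 5.07% in Coast tree 12 in March against 0.233% to 0.855%, and 8.14% in Coast tree 10 in June against 0.188% to 0.308%. Oregon tree 46 stood apart for gene21311 in March (0.307%, the others 0.0798% to 0.117%) and April (0.498%, the others 0.0866% to 0.121%), for gene11014 in April (0.239%, the others 0.0426% to 0.0695%) and for gene33484 in June (0.0390%, the others 0.0538% to 0.0556%). Oregon tree 89 stood apart for gene14970 in March (0.358%, the others 0.695% to 0.749%) and for gene39934 in June (0.396%, the others 0.235% to 0.255%). gene20782 was at 0.395% in Oregon tree 44 in May (the others 0.170% to 0.191%), and gene2351 at 0.280% in Oregon tree 90 in May (the others 0.117% to 0.139%).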

How the results depend on the processing

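The counts of called members between neighbouring dates and within sources depend on the setting, and the cause was not tested. For April against March, where 1 member was called, DESeq2 called 3, a threshold of 0.05 called 5, counts added up per family 2, library totals without TMM 2, the tree as a replicate block 11, and the flowcell as a covariate, fc1025 alone, no count filter and scaling without the members each 0. Leaving out each tree gave 0 to 2. For June against May, with 5 called, a threshold of 0.05 gave 11, family sums 3, the replicate block 14, and leaving out each tree 3 to 10. For May against April, with 19 called, fc1025 alone gave 11 and leaving out each tree 16 to 24. June against March had 15 to 17 called members without single trees and 22 with the replicate block. Within Cascades trees fc1025 alone gave 0, from an arm with 1 March library that is assumed to vary like the others and shows nothing about stability, and leaving out trees gave 2 to 10, within Oregon trees family sums and a fit of that source alone each gave 4 and leaving out trees 4 to 11, and within Coast trees leaving out trees gave 10 to 13. Oregon against Washington had 2 called members with DESeq2 and 0 to 1 without single trees, and change over the 4 dates had 24 to 32.

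In counts scaled by TMM (CPM), as a percentage, the gain of the members was 21.3 points over the sources, 18.4 in Oregon, 17.9 in Cascades and 27.7 in Coast trees. Leaving out each tree gave 14.2 to 15.7 points over the sources. Of all 50 members, 11 changed sign between scalings for June against March, none of them called. Among the named members, those that changed sign under any setting had no call: gene1117 was -0.14 with the replicate block and -0.72 to 1.28 without single trees, gene27590 was 0.011 with the flowcell as a covariate and -0.082 to 0.033 without single trees, gene39934 was -0.19 to 0.65 without single trees, and gene2351 was -0.23 with library totals. gene20782 passed the test with DESeq2 (adjusted p = 0.0093) and with the replicate block. The block changed no other June against March call of a named member.

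Over all features, April against March had 1026 calls, with 1625 by DESeq2, 2390 at 0.05, 469 on family sums, 210 in fc1025 alone and 3213 with the replicate block. June against March had 9002, with 5454 in fc1025 alone. May against April had 7858, with 3929 in fc1025 alone and 11821 with the block. June against May had 2048, with 4589 at 0.05, 914 on family sums, 1032 without a count filter and 5277 with the block. Cascades June against March had 1419, with 3468 at 0.05, 2242 by DESeq2, 585 fitted alone, 898 with the flowcell, 153 in fc1025 alone, 734 without a filter and 4370 with the block. Coast had 2890, with 5652 at 0.05, 1234 on family sums, 1496 in fc1025 alone, 1859 without a filter and 6370 with the block. Oregon had 2461, with 4986 at 0.05, 964 on family sums, 1193 fitted alone, 1379 in fc1025 alone, 1484 without a filter and 5726 with the block. Oregon against Washington had 0, with 2 at 0.05, 241 by DESeq2 and 2 without a filter, and Cascades against Coast 2, with 4 at 0.05, 1 on family sums, 80 by DESeq2 and 6 without a filter. Of all values under settings other than leaving out a tree, 380 kept their direction and side of the threshold (counts within 1.5 times), 58 moved, 3 reversed, 3 newly passed and 4 no longer passed. Without single trees these numbers were 435, 51, 5, 1 and 3.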
